A study of Mus musculus with 6 samples.

Results

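The genes described here encode the receptor family of the common gamma chain, the shared subunit of the receptors for interleukins IL-2, IL-4, IL-7, IL-9, IL-15 and IL-21, together with the kinase Jak3, which binds that chain. They were taken by gene symbol, 10 genes in all, out of 19938 genes measured on whole-transcript arrays. A probe set of their own stood for 8 of the 10 genes, 1 probe set each: Il2ra, Il15ra, Il2rb, Il7r, Il4ra, Il13ra1, Il9r and Il21r. The platform annotation paired no probe set with Il2rg, the common gamma chain itself, and the probe set that lists Jak3 also lists Insl3, so neither gene was analysed here. The results thus cover the chains that work beside the gamma chain, and Il13ra1, which takes its place in a receptor for IL-13, without the gamma chain and its kinase.

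RNA came from double-positive (DP) thymocytes, the thymic T cell precursors that carry both CD4 and CD8, of C57BL/6 mice aged 3 weeks. The samples were 3 arrays from mice labelled as Hdac3 knockouts (Hdac3 KO, a strain named after LCK and Hdac3) and 3 arrays from wild-type (WT) mice, with no treatment in either group. Hdac3 encodes a histone deacetylase that works as the catalytic subunit of the NCoR and SMRT corepressor complexes. The design text states that total RNA was pooled from 2 mice of either genotype, and it names 3 biological replicates without tying mice to arrays. The p-values therefore cover the spread among the arrays alone, and some of that spread may be technical. Strain names of this form usually stand for a deletion by Cre recombinase under the Lck promoter, which in mice is active in thymocytes before the DP stage. Neither the driver nor the deleted part of Hdac3 is given in these sources, and a change that began before the DP stage cannot be told apart from one that began in it.

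All values are log2 signals of a probe set, and a difference is Hdac3 KO minus WT on that scale, with its standard error (SE) from a limma fit across 23410 probe sets. A gene was called changed at a Benjamini-Hochberg adjusted p under 0.05 over all of these. Hdac3 had values of 8.28, 8.32 and 8.32 on KO arrays 1 to 3, against 9.40, 9.42 and 9.44 on WT arrays 1 to 3. The genes of DP cells were bright in both groups: the mean of 9 DP markers, Cd4, Cd8a and Rag1 among them, was 10.94 to 11.03 on the KO arrays and 10.92 to 11.10 on the WT arrays. The KO arrays had a narrower spread of signal, with interquartile ranges of 3.06 to 3.25 against 3.29 to 3.49 on the WT arrays, and this moved with genotype in every result below. KO array 2 stood apart by its neutrophil markers, whose mean over 12 genes was 5.99 there, 4.45 and 4.54 on KO arrays 1 and 3, and 4.34 to 4.47 on the WT arrays. In bulk RNA, fewer cells of a type and less RNA per cell cannot be told apart.

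Each receptor of the family pairs the common gamma chain, which carries Jak3, with another signalling chain, which carries Jak1. That chain is Il2rb for both IL-2 and IL-15, whose alpha chains only bind the cytokine, and Il4ra, Il7r, Il9r or Il21r for the other cytokines. The kinases phosphorylate STAT factors, STAT5 above all, and STAT6 for IL-4. In the mouse thymus the family is known for IL-7, which keeps double-negative thymocytes alive. Il7r is shut down in DP cells and returns in mature single-positive cells, while CD25, the product of Il2ra, marks a stretch of the double-negative stage.

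The control regions next to the start sites are shown for the 3 genes of the family that changed, as RefSeq sequence of mouse build GRCm38.p6, the 250 bases before the start, 5′ to 3′ on the strand of the gene. Capitals mark matches to any of 4 motifs searched on both strands: the STAT motif TTCNNNGAA, the RUNX motif TGTGGT, the ETS motif CCGGAA and the FOXO motif TGTTTAC. The Il2ra window is chr2:11642542-11642791 on the plus strand, that of Il7r is chr15:9529877-9530126 on the minus strand, and that of Il21r is chr7:125603179-125603428 on the plus strand.
Il2ra: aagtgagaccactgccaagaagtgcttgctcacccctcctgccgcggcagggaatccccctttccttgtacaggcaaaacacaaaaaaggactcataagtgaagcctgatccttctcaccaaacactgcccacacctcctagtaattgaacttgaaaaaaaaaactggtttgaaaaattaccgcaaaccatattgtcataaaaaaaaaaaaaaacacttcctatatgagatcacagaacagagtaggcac
Il7r: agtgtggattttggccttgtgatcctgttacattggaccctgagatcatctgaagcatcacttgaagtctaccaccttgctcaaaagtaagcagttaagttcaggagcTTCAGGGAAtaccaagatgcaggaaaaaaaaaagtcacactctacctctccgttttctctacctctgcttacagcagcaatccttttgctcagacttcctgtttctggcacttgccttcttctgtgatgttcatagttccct
Il21r: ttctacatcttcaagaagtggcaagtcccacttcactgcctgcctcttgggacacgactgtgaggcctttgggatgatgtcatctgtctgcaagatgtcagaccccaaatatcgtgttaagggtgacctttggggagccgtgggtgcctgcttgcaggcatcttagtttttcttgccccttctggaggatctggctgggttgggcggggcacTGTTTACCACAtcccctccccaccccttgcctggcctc
The Il7r window held 1 STAT match, from 142 to 134 bases before the start, and the Il21r window held a FOXO match from 38 to 32 and a RUNX match on the other strand from 33 to 28, which overlap. None of these letters was in the Il2ra window. Of 32851 promoter windows of the same length, 7.02% held the STAT motif, 14.05% the RUNX motif, 12.03% the ETS motif and 3.17% the FOXO motif. The 3 windows were poor in CpG, with 3 in Il2ra, 1 in Il7r and 4 in Il21r against a median of 6. A match describes the letters and is not a binding site, and variants of the 4 motifs were not searched.

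Of the 8 measured receptor genes, Il2ra and Il21r rose, Il7r fell and 5 did not pass the test. Of all probe sets tested 5.79% were called. Over the 19938 genes 6.09% were called, 1.84% higher and 4.25% lower, and 3 called of 8 is to be read against that share. The median size of the difference, whatever its direction, was 0.42 in the 8 genes and 0.16 over all genes, while the signed medians were -0.05 and 0.02. Hdac3 KO and WT arrays did not overlap for 6 of the 8 genes, 3 with KO above and 3 with KO below. Over all genes 31% showed no overlap.

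**Figure D1:**
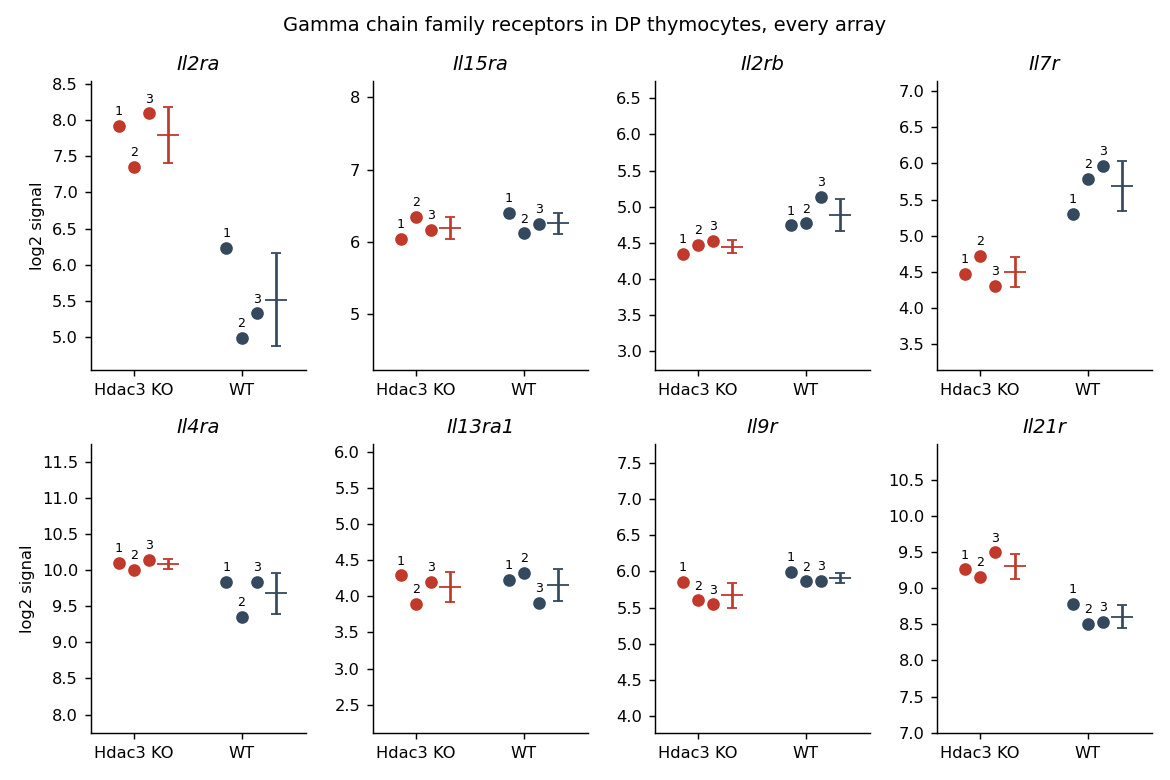
Log2 signal of the 8 measured receptor genes (vertical axes, each spanning 4 log2 units) on every array, Hdac3 KO left and WT right, with the array number above each point and the mean with its SD (n = 3) beside the points. Il2ra on the KO arrays lies 1.13 or more above every WT array, Il7r lies 0.58 or more below, and the groups mix for Il15ra and Il13ra1.

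Il2ra encodes the alpha chain of the IL-2 receptor, CD25, which raises the affinity for IL-2 and does not itself signal. Its values were 7.92, 7.36 and 8.09 on KO arrays 1 to 3, against 6.23, 4.99 and 5.33 on WT arrays 1 to 3. Every KO array lay above every WT array, and the closest pair, KO array 2 and WT array 1, was 1.13 apart. The difference was 2.28 (SE 0.29, 95% interval 1.62 to 2.93), a 4.84-fold higher signal in KO (limma adjusted p = 0.0033). This was rank 2 by size of rise among 23410 probe sets, and also the largest SE of the 8 receptor genes, because both groups were spread: the SD was 0.39 in KO and 0.64 in WT (n = 3 each). Leaving out WT array 2 gave the smallest difference, 2.01, and leaving out WT array 1 the largest, 2.63, over the 6 such fits, with limma adjusted p up to 0.017. It was 2.49 without KO array 2, the array with the neutrophil signal.

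Il2ra also marks double-negative thymocytes and regulatory T cells, so their other markers were set beside it. The part of either cell type in the Il2ra signal was not tested. For 10 double-negative markers, Kit, Notch1, Dtx1 and Ptcra among them, the mean signal was 6.48 to 6.62 on the KO arrays and 6.45 to 6.68 on the WT arrays, and the groups overlapped. None of the 10 rose and 1 fell, the adhesion receptor Cd44 (difference -0.66, SE 0.09, limma adjusted p = 0.0034). Differences were positive for 6 of the 10 and their median was 0.01. Lyl1 was higher on every KO array than on any WT array, and its difference of 0.35 (SE 0.10) did not pass (limma adjusted p = 0.063). For 8 regulatory T cell markers the mean was 5.87 to 6.05 on the KO arrays and 6.09 to 6.17 on the WT arrays. None rose, and 2 fell, Ikzf2 with a difference of -1.23 (SE 0.16, limma adjusted p = 0.0035) and Tnfrsf18 with one of -0.50 (SE 0.10, limma adjusted p = 0.025). Differences were positive for 4 of the 8 and their median was 0.03. Ctla4 was higher on every KO array than on any WT array, by 0.20 between the means (SE 0.10, limma adjusted p = 0.25). Foxp3, which defines that lineage, had dim values of 5.40, 5.19 and 5.25 on the KO arrays, against 5.00, 5.23 and 5.14 on the WT arrays, and these overlap.

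Il15ra encodes the alpha chain for IL-15, built like the IL-2 alpha chain, and its gene is the next protein-coding gene after Il2ra on chromosome 2. It had values of 6.05, 6.35 and 6.16 on KO arrays 1 to 3, against 6.41, 6.12 and 6.25 on WT arrays 1 to 3. The groups overlapped, and the difference was -0.07 (SE 0.11, 95% interval -0.33 to 0.18, limma adjusted p = 0.72). The upper bound lies below the lower bound of Il2ra, 1.62. Rbm17, a splicing factor gene on the other side of Il2ra, differed by -0.32 (SE 0.10) and did not pass (limma adjusted p = 0.082).

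Il2rb encodes the beta chain shared by the IL-2 and IL-15 receptors, a signalling chain that is prominent on natural killer and innate-like T cells. It was dim, with 4.34, 4.47 and 4.53 on KO arrays 1 to 3, against 4.74, 4.77 and 5.13 on WT arrays 1 to 3. All KO arrays lay below all WT arrays, by 0.22 or more. The difference of -0.43 (SE 0.12, 95% interval -0.71 to -0.16) did not pass (limma adjusted p = 0.068). It passed when the arrays were rescaled, with -0.54 after quantile normalization, -0.56 after cyclic loess normalization and -0.54 after median centring (limma adjusted p = 0.022, 0.018 and 0.019). Among 11 other markers of natural killer and innate-like T cells, perforin, Prf1, rose by 0.67 (SE 0.11, limma adjusted p = 0.0094) and the granule protein gene Nkg7 fell by 0.45 (SE 0.10, limma adjusted p = 0.041). The mean of the 11 was 4.90 to 5.03 on the KO arrays and 4.80 to 4.90 on the WT arrays. Differences were positive for 8 of the 11 and their median was 0.05, the opposite sign to Il2rb. All KO arrays lay above all WT arrays for 3 of the 11 and below for 1. The part of such cells in the Il2rb signal was not tested. Alpha and beta chains of the IL-2 receptor thus had differences of opposite sign, of which only the alpha chain passed as deposited.

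Il7r encodes the alpha chain for IL-7, which also serves TSLP together with Crlf2. It had values of 4.47, 4.73 and 4.31 on KO arrays 1 to 3, against 5.30, 5.79 and 5.97 on WT arrays 1 to 3. Every KO array lay below every WT array, and the closest pair, KO array 2 and WT array 1, was 0.58 apart. The difference was -1.19 (SE 0.17, 95% interval -1.57 to -0.80), which left 44.0% of the signal seen in WT (limma adjusted p = 0.0056). Il7r was rank 48 by size of fall among 23410 probe sets, with a mean signal below the median of all probe sets tested, 5.77. Over the 6 fits that leave out 1 array it was most negative, -1.38, without WT array 1 and least negative, -1.04, without WT array 3, with limma adjusted p up to 0.029.

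Il7r returns in mature single-positive thymocytes, so other markers of those cells were set beside it. Of 8 such genes, Ccr7, S1pr1, Klf2 and Cd69 among them, none passed in either direction, and their mean was 6.52 to 6.85 on the KO arrays and 6.50 to 6.66 on the WT arrays. Differences were positive for 5 of the 8 and their median was 0.25, the opposite sign to Il7r. They ran from -0.32 (SE 0.18, limma adjusted p = 0.28) for the egress receptor gene S1pr1 to 0.35 (SE 0.15, limma adjusted p = 0.17) for Cd69. For Cd69 and Klf2 every KO array lay above every WT array. On WT arrays 1 to 3 the mean of the 8 was 6.50, 6.56 and 6.66, the order of Il7r there. KO arrays 1 to 3 had 6.52, 6.70 and 6.85, while Il7r was lowest on KO array 3. The part of mature cells in the Il7r result was not tested. The genes on both sides of Il7r on chromosome 15 did not pass either: Capsl differed by 0.04 (SE 0.09, limma adjusted p = 0.81) and Spef2 by 0.19 (SE 0.10, limma adjusted p = 0.26). Capsl was dim on every array, at 3.18 to 3.34, so a fall there could hardly be seen.

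Il4ra encodes the chain that binds IL-4 with the gamma chain and IL-13 with Il13ra1. It was bright, with 10.10, 10.001 and 10.14 on KO arrays 1 to 3, against 9.83, 9.35 and 9.84 on WT arrays 1 to 3. KO lay above WT on every array, by 0.16 or more, and the difference of 0.40 (SE 0.14, 95% interval 0.10 to 0.71) did not pass (limma adjusted p = 0.11). WT array 2 weighed on it, since the difference was 0.24 without that array (limma adjusted p = 0.25). Of all alternatives it passed only with array weights, at 0.50 (limma adjusted p = 0.043). Il13ra1, the alternative partner that replaces the gamma chain in the receptor for IL-13, was dim and overlapped, with 4.29, 3.89 and 4.20 on KO arrays 1 to 3, against 4.23, 4.33 and 3.91 on WT arrays 1 to 3. Its difference was -0.03 (SE 0.14, 95% interval -0.34 to 0.28, limma adjusted p = 0.91).

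Il21r encodes the chain specific for IL-21, and its gene follows Il4ra on chromosome 7. It had values of 9.26, 9.15 and 9.49 on KO arrays 1 to 3, against 8.79, 8.50 and 8.53 on WT arrays 1 to 3. The groups were 0.37 apart at their closest. The difference was 0.70 (SE 0.12, 95% interval 0.43 to 0.97), a 1.62-fold higher signal in KO (limma adjusted p = 0.013). The call was lost without KO array 3 (0.60, limma adjusted p = 0.053) and without WT array 2 (0.64, limma adjusted p = 0.055). Gtf3c1, on the other side of Il21r, differed by -0.06 (SE 0.09), and Nsmce1, on the other side of Il4ra, by 0.11 (SE 0.15), and neither passed (limma adjusted p = 0.68 for both).

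Il9r encodes the chain specific for IL-9, a cytokine best known from mast cells and helper T cells. It had values of 5.86, 5.60 and 5.55 on KO arrays 1 to 3, against 5.99, 5.86 and 5.87 on WT arrays 1 to 3. KO array 1 and WT array 2 nearly touched, and the difference of -0.24 (SE 0.11, 95% interval -0.48 to 0.00) did not pass (limma adjusted p = 0.20). Nsg2, beside Il9r on chromosome 11, was called lower (-0.81, SE 0.17, limma adjusted p = 0.029). Zcchc12, beside Il13ra1 on chromosome X, was called lower too (-0.55, SE 0.13, limma adjusted p = 0.042).

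**Figure D2:**
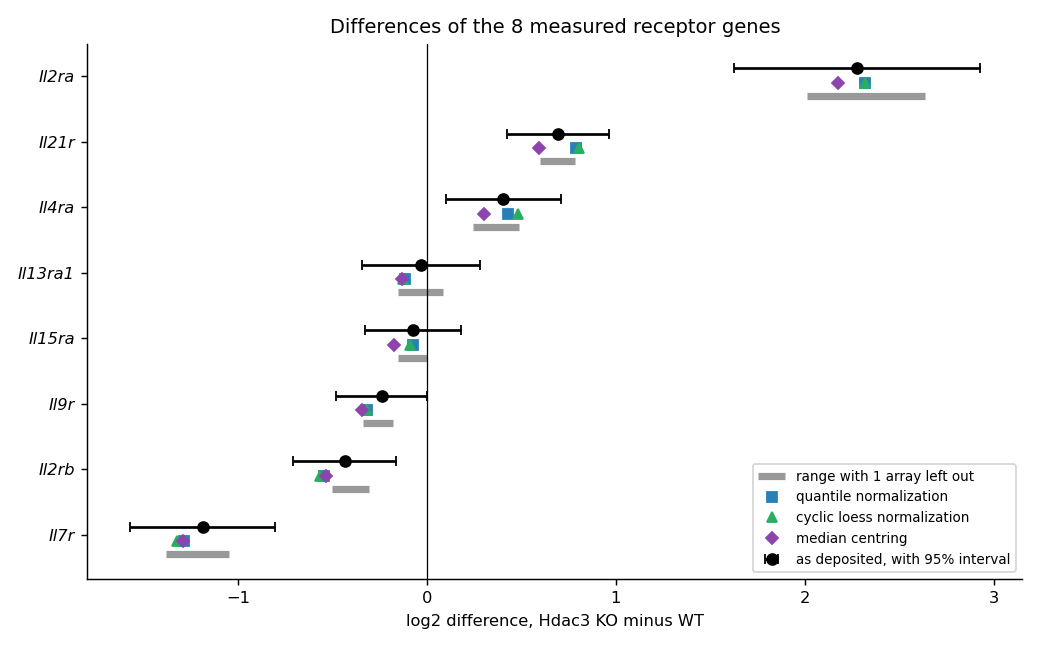
Log2 difference of each measured receptor gene, Hdac3 KO minus WT (horizontal axis), as deposited with its 95% interval, after 3 ways of rescaling the arrays, and as the range with 1 array left out. Il2ra, Il4ra and Il21r stay to the right of 0 and Il7r and Il2rb to the left in all of these, and Il13ra1 spans 0. Il4ra and Il2rb did not pass as deposited.

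Within each genotype 3 receptor genes shared the array on which they were lowest, and in KO also the one on which they were highest. This pattern was noticed after the values were seen. Il2ra, Il4ra and Il21r were the 3 genes with positive differences. Each had its highest KO value on KO array 3 and its lowest on KO array 2, and its lowest WT value on WT array 2. The highest WT value was on WT array 1 for Il2ra and Il21r and on WT array 3 for Il4ra. Il7r ran the other way in the KO group, highest on KO array 2 with 4.73 and lowest on KO array 3 with 4.31. In the WT group Il7r was lowest on WT array 1 with 5.30, the array where Il2ra was highest with 6.23. KO array 2 also had the smallest interquartile range, 3.06, and the highest neutrophil markers, and the part of either in this order was not tested.

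The genes nearest to Il2ra and Il7r in pattern were found over all 19938 genes by the root mean square difference between deviations from each gene's own mean over the 6 arrays. Nearest to Il2ra were Itgam, the integrin chain CD11b, at 0.29, Spsb1, an adaptor of ubiquitin ligases, at 0.44, and Myo1f, an unconventional myosin, at 0.51. Itgam had 8.57, 8.18 and 8.33 on KO arrays 1 to 3, against 6.60, 6.05 and 6.22 on WT arrays 1 to 3, and like Il2ra it was lowest on KO array 2 and WT array 2 within the groups. Itgam is also a myeloid marker. Of the 9 markers of macrophages and dendritic cells it was the one called. The mean of the other 8 was 5.13 to 5.36 on the KO arrays, highest on KO array 2, and 4.94 to 5.05 on the WT arrays, and all 8 overlapped between the groups. Csf1r differed by 0.04 (SE 0.11), Adgre1 by -0.04 (SE 0.14) and Cd68 by -0.12 (SE 0.11), and Lyz2 was 6.65 on KO array 2, 4.54 and 4.71 on KO arrays 1 and 3 and 4.09 to 4.65 on the WT arrays. The part of such cells in the Il2ra result was not tested.

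Nearest to Il7r were Vim, the intermediate filament protein vimentin, at 0.13, Ccnd2, the cyclin D2 gene, at 0.20, and Cnn2, the actin-binding protein calponin 2, also at 0.20. Vim had 8.19, 8.33 and 8.31 on KO arrays 1 to 3, against 9.20, 9.63 and 9.75 on WT arrays 1 to 3. It shared with Il7r the order of the WT arrays, lowest on array 1 and highest on array 3. These distances describe 6 arrays in 2 groups, and a gene with a large difference between genotypes can only be near to others with one.

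**Figure D3:**
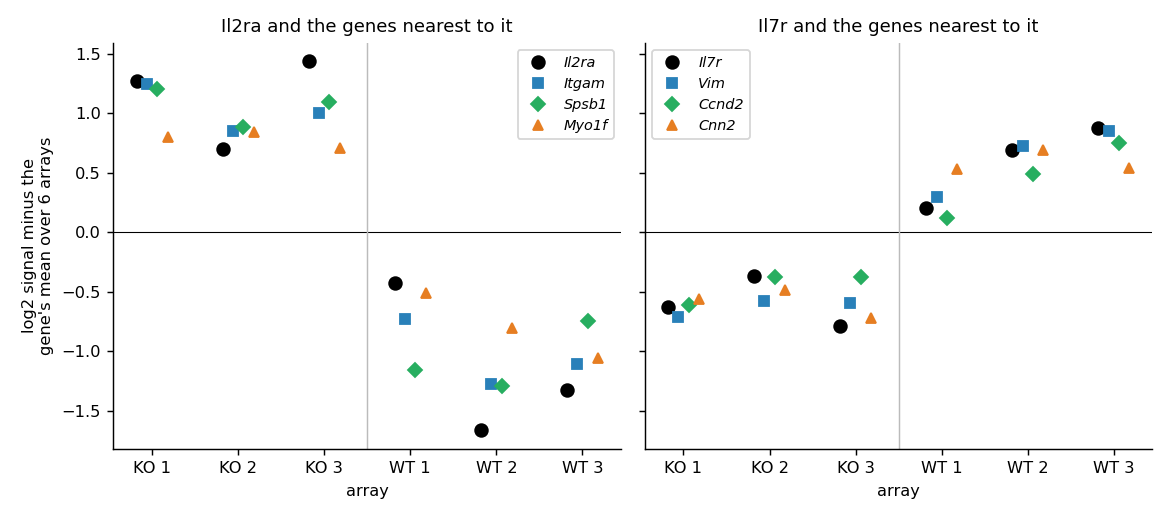
Log2 signal minus the gene's own mean over the 6 arrays (vertical axis) on each array (horizontal axis, Hdac3 KO left of WT) for Il2ra with the 3 genes nearest to it (left) and Il7r with the 3 genes nearest to it (right). Vim follows Il7r within 0.13 on average (root mean square), and Itgam follows Il2ra within 0.29.

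Other genes of the pathway were described from 7 lists by role, 39 genes of which 38 had a probe set of their own. Over the 38 genes none rose, 4 fell and 34 did not pass. The signed median difference was 0.02, as over all genes, where 4.25% were called lower. Each of the 4 was called with any 1 array left out. After quantile normalization without KO array 2 Myc was still called (-0.96, limma adjusted p = 0.0046), and Jak2 (-0.50), Ccnd2 (-0.87) and Gfi1 (-0.60) were not (limma adjusted p = 0.051, 0.080 and 0.086).

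None of the 8 ligand genes passed, and all 8 were below the median signal. Their differences ran from -0.03 for Il2 to 0.16 for Il15, which had the smallest p of them (SE 0.10, 95% interval -0.06 to 0.39, limma adjusted p = 0.34). Il7, which thymic stroma supplies, differed by 0.05 (SE 0.10, limma adjusted p = 0.78). The remaining receptor chains did not pass either, at 0.08 (SE 0.09) for the TSLP chain Crlf2 and -0.09 (SE 0.09) for the decoy receptor Il13ra2 (limma adjusted p = 0.63 and 0.57).

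Among the Janus kinases, Jak2 fell, with 8.69, 8.60 and 8.73 on KO arrays 1 to 3, against 9.38, 9.36 and 9.15 on WT arrays 1 to 3. Its difference was -0.62 (SE 0.10, limma adjusted p = 0.0091), with no overlap. Jak2 serves receptors outside the gamma chain family, such as those for interferon gamma. Jak1, the partner of Jak3 on gamma chain receptors, differed by 0.14 (SE 0.09, 95% interval -0.06 to 0.35) and Tyk2 by -0.01 (SE 0.11), and neither passed (limma adjusted p = 0.35 and 0.96).

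None of 4 measured STAT genes passed. The main STAT factors of the family were bright and close between genotypes, at 0.07 (SE 0.10) for Stat5a and 0.09 (SE 0.08) for Stat5b, with 95% intervals of -0.15 to 0.28 and -0.10 to 0.28 (limma adjusted p = 0.70 and 0.52). Stat6, which IL-4 activates, differed by -0.15 (SE 0.09, limma adjusted p = 0.32). Stat3, which IL-21 activates, had the smallest p, with 9.10, 9.04 and 9.15 on KO arrays 1 to 3, against 9.58, 9.34 and 9.42 on WT arrays 1 to 3. Its difference of -0.35 (SE 0.10) did not pass (limma adjusted p = 0.066), though the groups did not overlap. It passed in 3 alternatives, after median centring (-0.45), without dim probe sets and with a robust prior that follows signal (limma adjusted p = 0.034, 0.035 and 0.024).

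None of 7 feedback inhibitors passed. Socs3, which blocks Janus kinases, came closest, with 7.28, 7.14 and 7.30 on KO arrays 1 to 3, against 6.76, 6.59 and 7.01 on WT arrays 1 to 3. Its difference was 0.45 (SE 0.12, limma adjusted p = 0.056). It passed in 7 of 10 other settings, among them quantile normalization (0.54, limma adjusted p = 0.041) and array weights (0.53, limma adjusted p = 0.018), and not after median centring (0.35, limma adjusted p = 0.096). With 1 array left out it passed in 1 of 6 fits, that without WT array 3 (0.56, limma adjusted p = 0.022). Cish and Socs2, which STAT5 itself induces, differed by -0.18 (SE 0.11) and 0.27 (SE 0.14) and did not pass (limma adjusted p = 0.33 and 0.27). These small differences rested in part on 1 array, with -0.10 for Cish without WT array 1 and 0.12 for Socs2 without KO array 2. Socs1, the inhibitor known for keeping DP thymocytes unresponsive to cytokines in mice, differed by -0.15 (SE 0.11, limma adjusted p = 0.38).

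Of 7 target genes of STAT5 and gamma chain cytokines, Myc and Ccnd2 fell and 5 did not pass. Myc, the growth regulator, had 6.84, 6.18 and 6.81 on KO arrays 1 to 3, against 7.95, 7.91 and 7.76 on WT arrays 1 to 3, a difference of -1.26 (SE 0.17, limma adjusted p = 0.0035). The WT values lay close together and KO array 2 was the lowest. Ccnd2 had 6.53, 6.76 and 6.76 on KO arrays 1 to 3, against 7.25, 7.62 and 7.88 on WT arrays 1 to 3, a difference of -0.90 (SE 0.15, limma adjusted p = 0.011). The survival genes Bcl2 and Mcl1 had differences of opposite sign, -0.27 (SE 0.10) and 0.34 (SE 0.09), that did not pass (limma adjusted p = 0.15 and 0.058). Mcl1 passed in 4 of 10 other settings, with limma adjusted p from 0.0041 to 0.0498, and in none of the 6 fits with 1 array left out. The kinase gene Pim1 differed by 0.36 (SE 0.14, limma adjusted p = 0.15).

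Of 7 transcription factors known to act on the genes of this family, Gfi1 fell and 6 did not pass. Gfi1, a repressor of Il7r in mouse T cells, had 7.68, 7.39 and 7.99 on KO arrays 1 to 3, against 8.47, 8.49 and 8.65 on WT arrays 1 to 3, a difference of -0.85 (SE 0.14, limma adjusted p = 0.011). Gfi1 and Il7r both had lower signals in KO, and whether Gfi1 acted on Il7r in these cells was not tested. Foxo1, an activator of Il7r in mature T cells, differed by 0.26 (SE 0.11, 95% interval 0.01 to 0.51) and Gabpa, an ETS factor required for Il7r, by -0.26 (SE 0.10), and neither passed (limma adjusted p = 0.18 and 0.17). Runx1 differed by 0.16 (SE 0.09) and Runx3 by -0.23 (SE 0.10, limma adjusted p = 0.29 and 0.20).

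**Figure D4:**
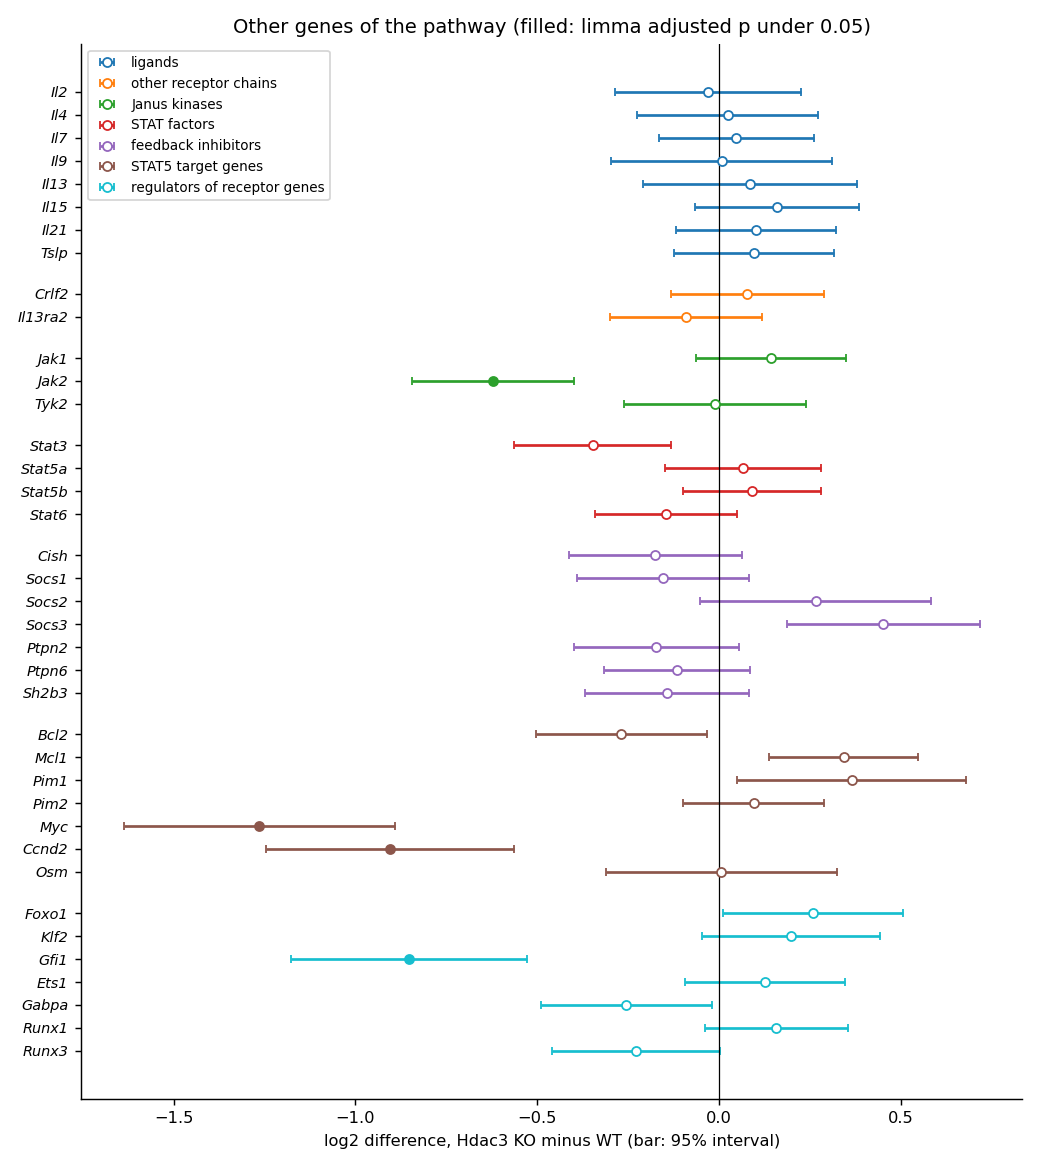
Log2 difference, Hdac3 KO minus WT, with its 95% interval (horizontal axis) for 38 other genes of the pathway, grouped by role from ligands at the top to regulators of the receptor genes at the bottom. Filled points mark the 4 called genes, Jak2, Myc, Ccnd2 and Gfi1, all to the left of 0, while the ligand genes lie between -0.03 and 0.16.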

How the data were processed

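Values were the log2 probe set signals deposited by the authors in the series matrix, 6 columns and 28853 probe sets. The log2 scale was read from their range, 1.94 to 13.98. No source used here gives the background correction or the normalization. Detection calls were not used. Total RNA was labelled as sense-strand target, per the labels' protocols.

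Probe sets were named through the platform annotation, 21789 with 1 symbol and 1621 with several, from which no gene was named. The brightest probe set over 6 arrays stood for a gene. Listed genes were matched by symbol or Entrez identifier. The 23410 annotated probe sets were fitted with limma 3.58.1 in R 4.3.3 (lmFit, eBayes, 2 group means, two-sided, Benjamini-Hochberg). The fit was checked on simulated data. An exact test of 3 against 3 arrays cannot reach the threshold and was not run.

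The receptor genes, lists, tests and alternatives were chosen with earlier results of these data known. Named were all measured receptor genes, Hdac3, every called pathway gene or else the one with the smallest p of its list, and the 3 genes nearest to Il2ra and to Il7r. Single markers, chromosomal neighbours and further pathway genes with values were picked after their values were seen.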

Additional observations from a re-analysis of the deposited data

How the results depend on the processing

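Il2ra, Il7r and Hdac3 were called with the same sign in every alternative in which they were tested. These comprised 3 rescalings, another variance prior, a block by replicate number, array weights, all probe sets, averaging over the probe sets of a gene, each array left out, and quantile normalization without KO array 2. Il7r was too dim to enter the fit without dim probe sets. Il2rb was called in 3 alternatives, the rescalings given above. Calls among the receptor genes numbered 2 to 4 over the settings, 3 of 8 as deposited and 2 of the 5 tested without dim probe sets. Il13ra1 changed sign, from -0.15 to 0.087 with 1 array left out and 0.013 after quantile normalization without KO array 2, as did Il15ra, from -0.15 to 0.00028 with 1 array left out. Called pathway genes numbered 4 as deposited, 7 of 26 without dim probe sets, 7 with an intensity trend and robust prior, and 1, Myc, after quantile normalization without KO array 2. Calls over all features moved too: 1812 of 11705 probe sets without dim ones and 1899 of 23410 with that prior, against 1355 of 23410 as deposited. The cause of these changes in count was not tested. Over all probe sets, 1355 calls as deposited (409 higher, 946 lower) became 2060 with arrays centred on their medians (197 higher, 1863 lower), where the median of all differences was -0.08. There were 2285 with array weights, 437 after quantile normalization without KO array 2 (the fit had 5 arrays), and 474 to 1946 with 1 array left out: 826, 474 and 489 without KO array 1, 2 or 3, and 517, 505 and 1946 without WT array 1, 2 or 3. Higher calls were 328 of 936 after quantile normalization.

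Shared replicate numbers are by themselves no evidence of pairing. Deviations of same-numbered arrays from their group means correlated at 0.25, -0.07 and -0.03, and 1 of 3 KO arrays correlated best with its own number. With 3 arrays centred in each group these correlations depend on one another, so they cannot decide whether arrays were paired. With the replicate number as a block 1162 probe sets and the same number of receptor genes, 3, were called, and 5 pathway genes against 4. Signal over background was not available, which leaves the dim genes Il7r, Il2rb and Il13ra1 the least certain in size.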
